A study of Homo sapiens with 6 samples.

Results

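The enzymes described here remove hydrogen peroxide, lipid peroxides and superoxide: the peroxiredoxins PRDX1 to PRDX6, the superoxide dismutases SOD1 and SOD2, catalase (CAT) and glutathione peroxidase 4 (GPX4). The 10 genes were taken by gene symbol from the deposited count table, which held 60604 usable genes, and all 10 passed the filter on low counts that left 15022 genes for testing. RNA came from MIA PaCa-2 cells, a long-used line grown out of a human pancreatic carcinoma and labelled as wild type. In 3 libraries the cells had been given Huaier (10 mg/ml), prepared from a fungus used in Chinese medicine, on top of black phosphorus (BP, 12.5 µg/ml), a layered form of the element; the other 3 libraries had BP (12.5 µg/ml) without Huaier. BP was thus present in both groups, and untreated cells and cells given Huaier alone were not analysed here. How long the cells were treated is not stated in the labels. Whether the 3 libraries per group are separate cultures is not stated, and p-values therefore reflect library-to-library spread, which may be technical.

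Superoxide, which leaks from the respiratory chain and is made by oxidases, is turned into hydrogen peroxide by SOD1 in the cytosol and SOD2 in the mitochondrial matrix. Peroxide is then removed by peroxiredoxins, by catalase in peroxisomes and by glutathione peroxidases. Peroxiredoxins are oxidised at a reactive cysteine and, for most members, reduced again by thioredoxin, while GPX4 is a selenoprotein that uses glutathione to reduce lipid peroxides in membranes and so restrains ferroptosis, an iron-dependent form of cell death.

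Library totals ranged between 15657593 and 17036565 counts on genes, and 3 counts corresponded to 0.160 to 0.222 CPM. Levels are given as CPM, counts relative to library size after scaling by trimmed mean of M values (TMM). The TMM factors were 0.85, 0.857 and 1.04 in BP+Huaier 1, 2 and 3, against 1.08 to 1.11 in the BP libraries. One library stood apart: principal component 1 (72.4% of variance) placed BP+Huaier 3 at 11.5, its group's other libraries at 65.1 and 66.0, and all BP libraries between -50.5 and -43.4. The keratins KRT8 and KRT18 and vimentin (VIM), markers of these cells, summed to 4394 to 6252 CPM in BP+Huaier libraries and 4826 to 5004 CPM in BP libraries, and 1 of the 3, KRT18, rose (edgeR adjusted p = 0.037). Of 6 acinar and endocrine pancreas markers 4 had no count in any library, PRSS1, AMY2A, INS and GCG, and the list summed to 1.48 to 2.42 CPM in BP+Huaier and 3.73 to 4.94 CPM in BP, nearly all from CEL, which fell (edgeR adjusted p = 0.014). Of 8 immune, endothelial and fibroblast markers PTPRC and DCN had no count, and the list summed to 400 to 514 CPM in BP+Huaier and 536 to 596 CPM in BP, mostly from COL1A2 with 373 to 476 CPM in BP+Huaier and 494 to 549 CPM in BP; COL1A1 rose (edgeR adjusted p = 8.9e-04). The part of these marker genes in the results was not tested.

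One of the 10 genes, PRDX1, rose when Huaier was added to BP, and none fell (edgeR quasi-likelihood test, Benjamini-Hochberg adjusted p under 0.05 over all 15022 genes). In the same test 14.4% of all genes were called higher and 15% lower, so a single call among 10 is near the background. At an unadjusted p under 0.05 PRDX1, PRDX6 and GPX4 were higher by edgeR, and SOD1 as well by DESeq2. None of the 10 was lower by either. The share of all genes at that unadjusted threshold is not given here. The median log2 fold change of the 10 genes was 0.32, against -0.02 for all tested genes. It was 0.20 with BP+Huaier 1 left out and 0.51 with BP+Huaier 3 left out, a distance of 0.21 and 0.57 from the median of all genes. The 2175 protein-coding genes of at least 100 CPM, a class to which all but CAT belong and which was chosen after values were seen, had a median of 0.31, with 27.9% called higher and 2.85% lower. By their median the enzymes therefore lay close to other abundant transcripts. In bulk RNA fewer transcripts per cell and fewer cells of one kind cannot be told apart. Scaling by library size alone shifted the median of all genes to -0.28 and that of the enzymes to 0.05, so the distance between the medians was 0.34 with TMM and 0.33 with library size.

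**Figure D1:**
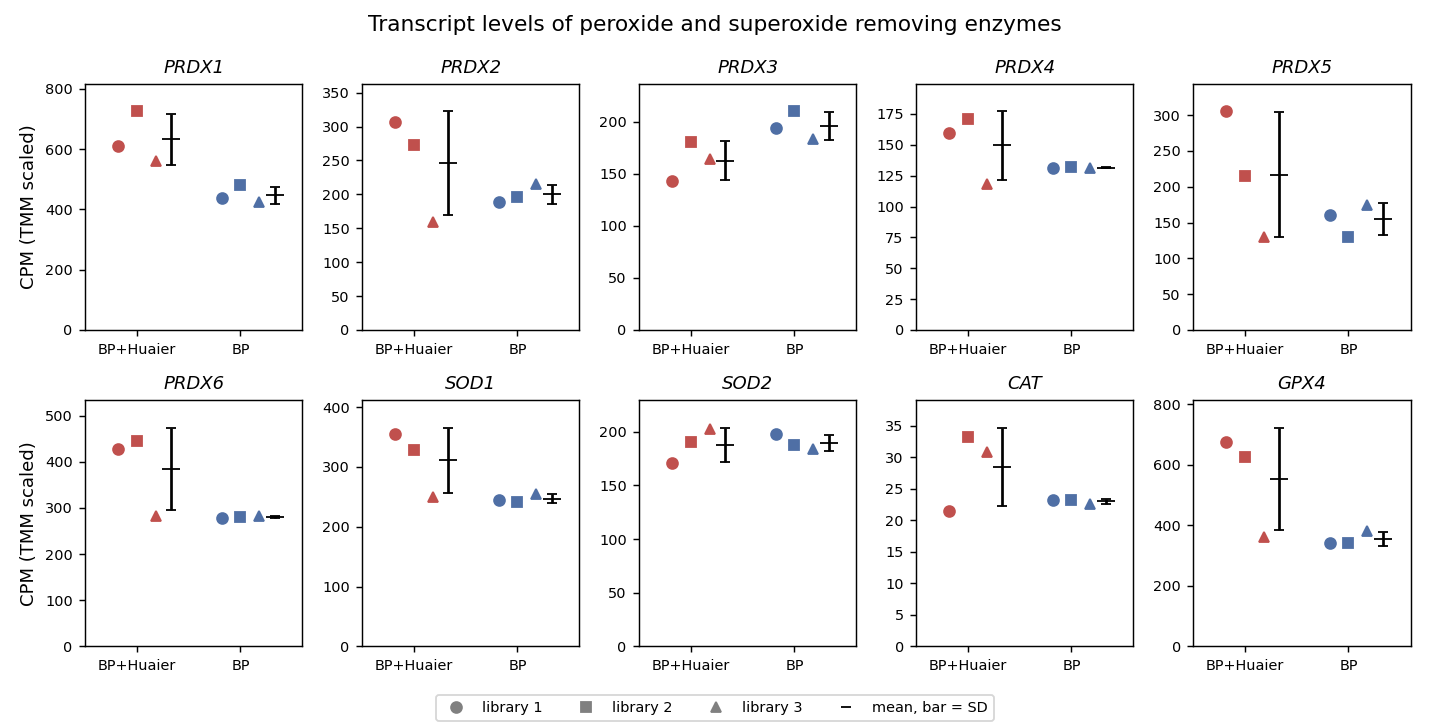
Level of each of the 10 genes in CPM (TMM scaled, vertical axes starting at 0) in 3 BP+Huaier libraries (red) and 3 BP libraries (blue), with symbols for the library number, which is not taken to pair the groups, and black bars for mean and SD. PRDX1 lies higher in each BP+Huaier library than in any BP library, while in PRDX2, PRDX4, PRDX5, PRDX6, SOD1 and GPX4 the third BP+Huaier library falls near or below the BP libraries.

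The transcripts differed widely in level. Per kilobase of exon, PRDX1 was the highest, with 376 ± 50.7 CPM per kilobase in BP+Huaier and 266 ± 17.2 in BP (SD, n = 3 each). GPX4 with 275 ± 83.5 in BP+Huaier and 176 ± 11.5 in BP and PRDX5 with 252 ± 102 in BP+Huaier and 180 ± 26.6 in BP followed, and the pair did not differ beyond the spread. PRDX6 (167 ± 38.5 in BP+Huaier, 121 ± 0.924 in BP) and SOD1 (158 ± 27.7 in BP+Huaier, 125 ± 3.92 in BP) were also neighbours within their spread. PRDX2 was at 121 ± 37.7 CPM per kilobase in BP+Huaier and 98.4 ± 6.91 in BP, PRDX4 at 80.6 ± 15.1 in BP+Huaier and 70.9 ± 0.281 in BP, and PRDX3 at 48.1 ± 5.59 in BP+Huaier and 58.0 ± 4.02 in BP. The lowest were SOD2, at 10.4 ± 0.871 in BP+Huaier and 10.4 ± 0.400 in BP, and CAT, at 7.96 ± 1.73 in BP+Huaier and 6.43 ± 0.110 in BP. These values depend on the exon lengths of the deposited annotation, which are 860 bases for PRDX5 but 18144 bases for SOD2, so the value of SOD2 is understated if most of those exons are little used.

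Promoters are printed for 3 enzymes, CAT as the least abundant transcript per length, GPX4 as the one with the largest fold change and PRDX3 as the one with the lowest. Each is the stretch of 250 bases upstream of a RefSeq start (GRCh38.p14; of several starts, the one of lowest coordinate), given 5′ to 3′ on the strand of the gene, at chr11:34438684-34438933 (plus strand) for CAT, chr19:1103744-1103993 (plus strand) for GPX4 and chr10:119178813-119179062 (minus strand) for PRDX3. Capitals mark CCAAT or its complement ATTGG, the CCAAT box bound by the factor NF-Y.
CAT: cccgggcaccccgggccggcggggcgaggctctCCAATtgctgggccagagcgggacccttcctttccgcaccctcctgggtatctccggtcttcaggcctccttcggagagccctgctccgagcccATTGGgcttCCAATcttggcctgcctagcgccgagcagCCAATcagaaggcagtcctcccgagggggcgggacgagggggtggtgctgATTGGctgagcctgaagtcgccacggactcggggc
GPX4: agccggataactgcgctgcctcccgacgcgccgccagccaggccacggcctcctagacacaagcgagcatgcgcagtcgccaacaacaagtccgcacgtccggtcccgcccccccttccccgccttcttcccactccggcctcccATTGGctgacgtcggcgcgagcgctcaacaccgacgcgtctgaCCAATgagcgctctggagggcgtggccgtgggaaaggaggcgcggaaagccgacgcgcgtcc
PRDX3: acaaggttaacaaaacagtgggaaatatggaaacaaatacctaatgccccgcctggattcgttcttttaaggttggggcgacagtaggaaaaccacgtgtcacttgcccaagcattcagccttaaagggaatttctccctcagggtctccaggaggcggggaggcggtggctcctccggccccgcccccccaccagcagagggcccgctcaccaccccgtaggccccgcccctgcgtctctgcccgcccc
The CAT promoter held 5 CCAAT boxes on either strand, that of GPX4 held 2 and that of PRDX3 held 0. Over all windows of these enzymes a CCAAT box was found in 5 of 13, and in 32.0% of all 35116 RefSeq windows of this length. RefSeq windows were matched for 7 of the 10 genes, 13 windows in all (PRDX2, PRDX3, PRDX4, PRDX5, SOD2, CAT and GPX4; not PRDX1, PRDX6 and SOD1). The core of the antioxidant response element, TGACNNNGC on either strand, bound by NRF2 with small MAF proteins, was in 0 of these 13 windows and in 10.9% of all windows. The GC box GGGCGG, on either strand, was in 13 of the 13 windows and in 42.6% of all windows. The 13 windows are not separate promoters, as some genes gave several and windows of GPX4 and of PRDX5 overlap. Their GC content was high, 60.4% to 80.8%. A match or its lack describes these letters in these windows only, and the motifs were chosen with the changes known.

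PRDX1 (ENSG00000117450.15, GRCh38 chromosome 1, 45510914 to 45542732, minus strand), the main cytosolic peroxiredoxin, was at 612, 727 and 560 CPM in BP+Huaier 1, 2 and 3, against 437, 480 and 424 CPM in BP 1, 2 and 3. The lowest BP+Huaier value lay above the highest BP value. PRDX1 rose 1.42-fold (95% interval 1.12 to 1.79), with means of 633 ± 85.2 CPM in BP+Huaier and 447 ± 28.98 CPM in BP, 0.50 ± 0.15 on the log2 scale (SE; adjusted p = 0.035 by edgeR). The fold stayed between 1.32 and 1.51 when each library was left out, but leaving out BP 1, 2 or 3 ended the call (edgeR adjusted p = 0.15, 0.097 and 0.13), as did leaving out BP+Huaier 1 or 2 (0.0504 and 0.13), while leaving out BP+Huaier 3 gave 1.1e-04. It was also lost with genes of at least 5 CPM (0.053) and with scaling by library size alone (0.15), where its log2 fold change of 0.23 lay 0.51 above the median of all genes. Exons of PRDX1 overlapped those of MMACHC on the opposite strand over 501 bases, or 29.8% of the exon bases of PRDX1. MMACHC fell, with 8.26 CPM in BP+Huaier and 17.97 CPM in BP (edgeR adjusted p = 0.0034), and its part in the PRDX1 value was not tested.

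The other cytosolic 2-Cys type, PRDX2 (ENSG00000167815.12, chromosome 19, 12796820 to 12801800), was at 306, 273 and 160 CPM in BP+Huaier 1, 2 and 3, against 189, 196 and 216 CPM in BP 1, 2 and 3. BP+Huaier 1 and 2 lay above the BP libraries and BP+Huaier 3 below them all, and the fold of 1.23 was not called (95% interval 0.866 to 1.75; edgeR adjusted p = 0.33). With library size scaling its log2 fold change was 0.0035.

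PRDX3 (ENSG00000165672.7, chromosome 10, 119167720 to 119178812), the peroxiredoxin of the mitochondrial matrix, was the member with the lowest fold change. It was at 143, 181 and 164 CPM in BP+Huaier 1, 2 and 3, against 194, 210 and 183 CPM in BP 1, 2 and 3, so the groups did not overlap, by a margin of under 3 CPM. The log2 fold change of -0.27 ± 0.14 (SE; 95% interval -0.59 to 0.05) was not called (edgeR adjusted p = 0.17). With library size scaling PRDX3 was called lower, at -0.53 on the log2 scale (adjusted p = 0.032 by edgeR), while its distance from the median of all genes was -0.25 under both scalings. The counts on its processed pseudogenes reached at most 19 in a library, and those on the pseudogenes of PRDX1 and PRDX2 at most 2 and 5.

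PRDX4 (ENSG00000123131.13, chromosome X, 23664262 to 23686397), which resides in the endoplasmic reticulum and passes oxidation to folding proteins, was at 159, 171 and 118 CPM in BP+Huaier 1, 2 and 3, against 131, 132 and 131 CPM in BP 1, 2 and 3. The BP libraries lay close together and the BP+Huaier libraries lay on both sides of them. The fold of 1.14 was not called (95% interval 0.885 to 1.46; edgeR adjusted p = 0.40), and its log2 value of 0.18 became -0.10 with library size scaling.

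PRDX5 (ENSG00000126432.14, chromosome 11, 64318121 to 64321811), found in mitochondria, peroxisomes and cytosol, was at 306, 215 and 130 CPM in BP+Huaier 1, 2 and 3, against 160, 130 and 175 CPM in BP 1, 2 and 3. It had the widest relative spread in both groups, and the third BP+Huaier library lay at the level of the lowest BP library. Its fold of 1.40 was not called (95% interval 0.909 to 2.16; edgeR adjusted p = 0.21).

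PRDX6 (ENSG00000117592.9, chromosome 1, 173477330 to 173488815), which uses a single cysteine and glutathione and also acts on phospholipids, was at 427, 445 and 283 CPM in BP+Huaier 1, 2 and 3, against 278, 281 and 282 CPM in BP 1, 2 and 3. The groups did not overlap, but BP+Huaier 3 exceeded the highest BP library by less than 1 CPM. The PRDX6 fold of 1.37 (95% interval 1.03 to 1.83) was not called (edgeR adjusted p = 0.087), but it was by DESeq2 (0.047), in the unfiltered table (edgeR, 0.025) and after removal of a GC and length trend (edgeR, 0.021). In the unfiltered fit all members except CAT had nearly the same SE (0.171 to 0.173), whatever their own spread. PRDX1 and PRDX6 were thus the members whose groups lay apart upwards and PRDX3 the one downwards, where 21.9% and 24.9% of all tested genes did so.

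Summed over the 6 peroxiredoxins, the level per kilobase was 1183, 1155 and 797 CPM per kilobase in BP+Huaier 1, 2 and 3, against 788, 788 and 808 in BP 1, 2 and 3. BP+Huaier 3 lay within the range of the BP libraries. The share of PRDX3 in this sum, which does not depend on scaling, was 3.58%, 4.63% and 6.09% in BP+Huaier 1, 2 and 3, against 7.30%, 7.91% and 6.71% in BP 1, 2 and 3, and the groups did not overlap. PRDX4 took 7.26% to 7.99% in BP+Huaier and 8.74% to 9.04% in BP, also without overlap. Its own CPM overlapped between the groups at a fold of 1.14, and a share also drops when other members rise. A background for such shares was not drawn, so these shares cannot be read as a result about PRDX3 or PRDX4. For CPM, 21.9% of all tested genes lay apart upwards and 24.9% downwards. The shares can still depend on GC content, and PRDX3 has the lowest of the 6 peroxiredoxins (43.1%). With a GC and length trend removed the log2 fold change of PRDX3 was -0.15, against -0.27 in the main fit. The shares of PRDX1, PRDX2, PRDX5 and PRDX6 overlapped between the groups, with PRDX1 at 30.8% to 41.8% in BP+Huaier and 31.2% to 36.2% in BP.

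SOD1 (ENSG00000142168.15, chromosome 21, 31659666 to 31668931), the copper and zinc enzyme, was at 356, 328 and 250 CPM in BP+Huaier 1, 2 and 3, against 244, 241 and 256 CPM in BP 1, 2 and 3. The third BP+Huaier library lay inside the BP range, and the fold of 1.26 was not called (95% interval 0.983 to 1.61; edgeR adjusted p = 0.14). SOD2 (ENSG00000112096.19, chromosome 6, 159669069 to 159762529), the manganese enzyme, was at 171, 191 and 202 CPM in BP+Huaier 1, 2 and 3, against 198, 188 and 183 CPM in BP 1, 2 and 3. The libraries of the groups were interleaved, and its fold of 0.992 carried a 95% interval of 0.809 to 1.22 (edgeR adjusted p = 0.95). Exons of SOD2 overlapped those of WTAP over 437 bases and of ACAT2 over 133 bases, both on the opposite strand, which is 2.4% and 0.7% of its exon bases. ACAT2 rose (edgeR adjusted p = 0.023) and WTAP was not called (0.093), and their part in the SOD2 value was not tested.

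The ratio of SOD2 to SOD1 counts within a library, which scaling of whole libraries leaves as it is, was 0.481, 0.581 and 0.810 in BP+Huaier 1, 2 and 3, against 0.809, 0.779 and 0.717 in BP 1, 2 and 3. BP+Huaier 1 and 2 lay below the BP libraries and BP+Huaier 3 at their upper end. The mean log2 ratio was -0.71 ± 0.38 in BP+Huaier and -0.38 ± 0.09 in BP (SD, n = 3 each), a difference of -0.33 (exact permutation test, two-sided, p = 0.4, where the smallest p that 3 against 3 libraries allow is 0.1). Correction for GC content and length, which acts on each gene, turned this direction: the log2 fold change of SOD2 minus that of SOD1 was then 0.16, against -0.34 in the uncorrected fit. The parts of GC content and of length in this turn were not tested apart.

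CAT (ENSG00000121691.7, chromosome 11, 34438934 to 34472060), the peroxisomal enzyme that splits hydrogen peroxide without a reductant, was at 21.4, 33.2 and 30.8 CPM in BP+Huaier 1, 2 and 3, against 23.2, 23.3 and 22.6 CPM in BP 1, 2 and 3. Here BP+Huaier 1 was the library that lay below the BP range and the others lay above it. The fold of 1.24 was not called (95% interval 0.934 to 1.64; edgeR adjusted p = 0.22), and without BP+Huaier 1 CAT was called higher at 1.40-fold (edgeR adjusted p = 0.038).

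GPX4 (ENSG00000167468.18, chromosome 19, 1103926 to 1106791) had the largest fold change of the 10 genes. It was at 677, 624 and 362 CPM in BP+Huaier 1, 2 and 3, against 343, 342 and 383 CPM in BP 1, 2 and 3. BP+Huaier 1 and 2 were far above the BP libraries and BP+Huaier 3 lay among them. The fold of 1.56 (95% interval 1.10 to 2.21) missed the threshold (log2 fold change 0.64 ± 0.22, SE; edgeR adjusted p = 0.059), with means of 555 ± 169 CPM in BP+Huaier and 356 ± 23.1 CPM in BP. It passed by DESeq2 (adjusted p = 0.021), in the unfiltered table (edgeR, 9.6e-04) and by limma-voom with a separate spread for each group (adjusted p = 0.026). In the unfiltered fit the SE of GPX4 was 0.171, nearly that of most other members, so its own spread counted less there.

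**Figure D2:**
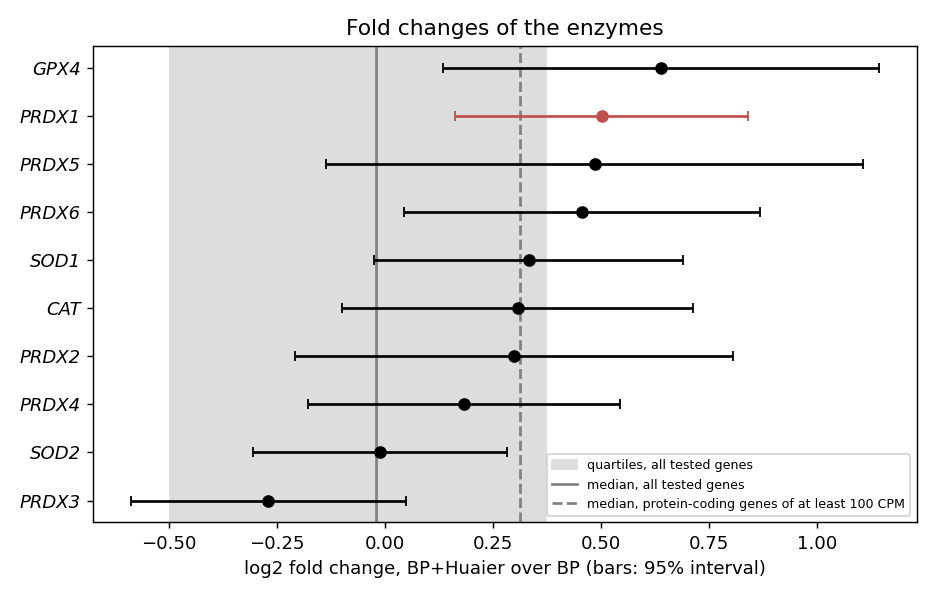
Log2 fold change of each gene, BP+Huaier over BP, with its 95% interval, PRDX1 in red as the called gene. The grey band spans the quartiles of all tested genes (-0.50 to 0.37), the solid line is their median (-0.02) and the dashed line is the median of protein-coding genes of at least 100 CPM (0.31), which the intervals of all but SOD2 and PRDX3 include.

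The third BP+Huaier library carried much of this spread. Relative to the range of the BP libraries, BP+Huaier 1 had 7 of the 10 genes above and 3 below, BP+Huaier 2 had 8 above and 1 below, and BP+Huaier 3 had 4 above and 3 below. Across the other settings few enzymes were called. Without BP 1, 2 or 3 none was, where 5.27%, 5.46% and 6.61% of all genes were higher and 5.92%, 6.14% and 6.84% lower. Without BP+Huaier 1 only CAT was called (11.4% of all genes higher, 11.8% lower), and without BP+Huaier 2 none (6.08% higher, 6.48% lower). By DESeq2 3 were higher, PRDX1, PRDX6 and GPX4 (18.4% of all genes higher, 16.2% lower), and with no filter PRDX5 as well (9.09% higher, 9.63% lower). The SE of PRDX5 was 0.172 with no filter, against 0.276 in the main fit. With library size scaling 1 was lower, PRDX3 (7% of all genes higher, 19.7% lower), and by limma-voom with a spread for each group PRDX1 and GPX4 were higher (15.4% of all genes higher and 15.4% lower). Without BP+Huaier 3, 7 genes were called higher (PRDX1, PRDX2, PRDX4, PRDX5, PRDX6, SOD1 and GPX4) and 0 lower, where 28.8% of all genes were then called higher and 31% lower. GPX4 was then 1.84-fold higher (edgeR adjusted p = 1.9e-06), PRDX5 1.69-fold (4.2e-04) and PRDX6 1.57-fold (1.6e-05). PRDX5 moved the other way without BP+Huaier 1, where its fold was 1.12 (edgeR adjusted p = 0.63). PRDX3 was not called without BP+Huaier 3 (edgeR adjusted p = 0.052), nor was SOD2 (0.62).

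The changes also moved with the GC content of the transcripts. GPX4, PRDX5 and PRDX2 have the highest GC content of the 10 longest transcripts, 62.5%, 61.5% and 56.7%, and PRDX3 and SOD2 the lowest, 43.1% and 41.7%, with a median of 49.4% for all tested genes. Across the 10 genes, which share libraries and depth, the log2 fold change correlated with GC content at r = 0.69. Against the BP mean the correlation was 0.86, 0.58 and -0.33 in BP+Huaier libraries 1, 2 and 3, so the relation varied within that group. It was -0.32, -0.64 and 0.85 in BP libraries 1, 2 and 3. These BP values must differ in sign, because deviations from the BP libraries' own mean cancel out. Once each library had been corrected for its dependence on GC content and length, the correlation over the 10 genes was -0.05. The correction is built to remove such a relation, so this value is no separate result. It also removes any difference between the groups that follows GC content or length. The log2 fold change was then 0.31 for GPX4, 0.28 for PRDX5 and 0.12 for PRDX2, none of them called (edgeR adjusted p = 0.074, 0.22 and 0.53). PRDX1 kept its call at 0.52 (edgeR adjusted p = 0.0078), and PRDX6 at 0.58 (0.021) and SOD2 at 0.42 (0.025) were called higher, where 19.1% of all genes were higher and 19.1% lower. The annotated exon length of SOD2 is 18144 bases, and the parts of length and GC content in its change were not tested apart.

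**Figure D3:**
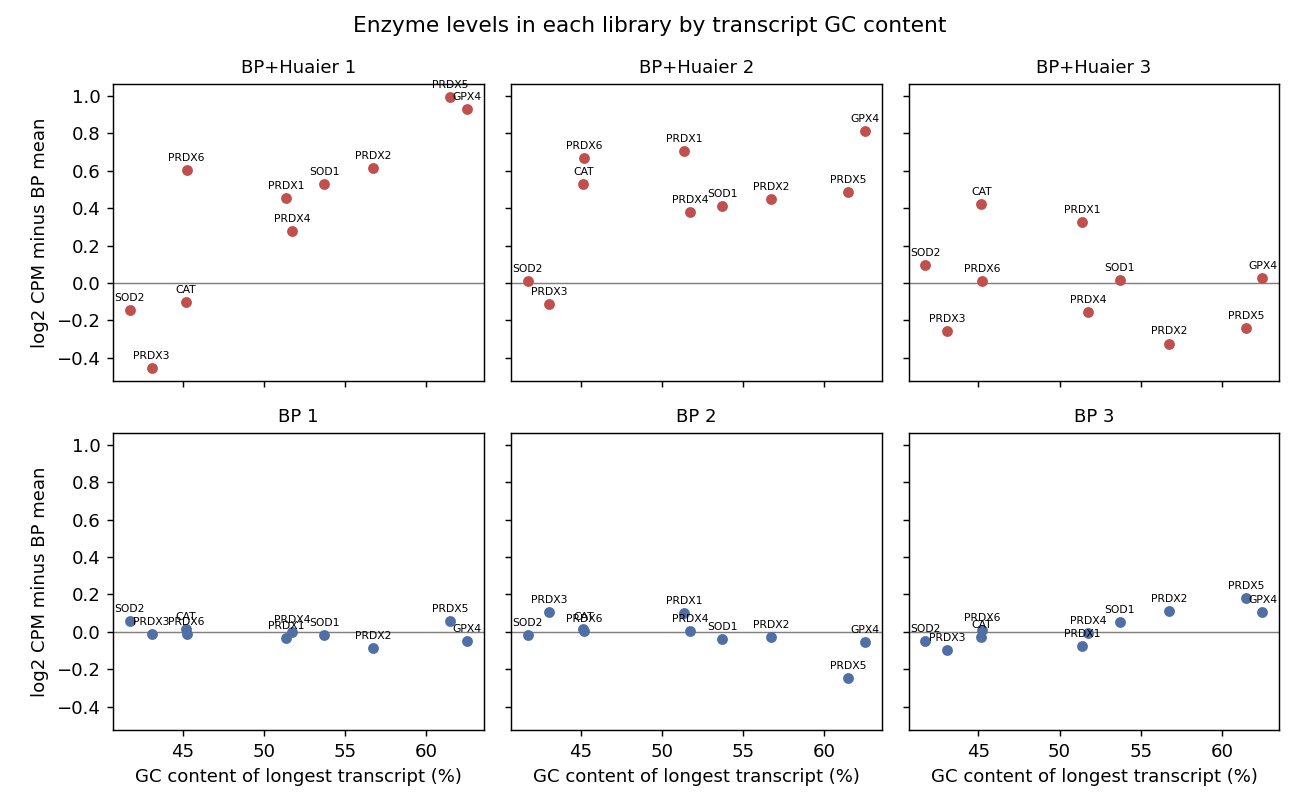
Log2 CPM of each gene minus its mean over the BP libraries (vertical axis) against the GC content of its longest transcript in percent (horizontal axis), 1 panel per library, BP+Huaier above and BP below. In BP+Huaier 1 the values climb with GC content from PRDX3 (-0.45) to PRDX5 (0.99), a slope that is absent in BP+Huaier 3.

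The genes whose pattern over the 6 libraries lay nearest to that of PRDX1 were ABHD17B, DNAJA2, EIF1B, PIGU and PMAIP1. Their log2 CPM, centred on the BP mean, differed from that of PRDX1 by a root mean square of 0.040 to 0.048, against a median of 0.36 over 7263 protein-coding genes of at least 20 CPM. DNAJA2, a co-chaperone of HSP70, was at 196, 227 and 185 CPM in BP+Huaier 1, 2 and 3, against 141, 162 and 139 CPM in BP 1, 2 and 3. PMAIP1, a pro-apoptotic BCL2 family member, was at 37.5, 43.2 and 33.7 CPM in BP+Huaier 1, 2 and 3, against 24.7, 28.5 and 26.6 CPM in BP 1, 2 and 3.

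Connected pathways were described with 11 lists holding 167 genes, of which 137 were tested and 39 called, higher or lower. That is 28.5% of those tested, where 29.3% of all genes were called in either direction, so the pooled count is at the background. The pooled count hides direction, since 14.4% of all genes were higher and 15% lower. Some single lists were near these shares as well, such as superoxide or peroxide makers with 2 rises and 2 falls among 15 tested. The glutathione list, with 3 rises among 17 genes, was also near the share of all genes called higher. Rises outnumbered falls in the thioredoxin, glutathione, NADPH, other selenoprotein, lipid peroxidation and regulator lists. Falls outnumbered rises in the peroxisome list. In the copper delivery list the only call was the fall of ATP7A, 1 of 6 tested genes, and the list median was 0.13. Of these 39, 13 were called whichever library was left out, while leaving out BP 1, 2 or 3 ended 24, 24 or 19 of the calls and leaving out BP+Huaier 1, 2 or 3 ended 10, 22 or 0. In the thioredoxin system, which reduces peroxiredoxins, 4 of 12 genes rose and 0 fell (median log2 fold change 0.29, against -0.02 for all tested genes). TXNIP, which binds and inhibits thioredoxin, rose 2.84-fold and was at 2393, 3719 and 2350 CPM in BP+Huaier 1, 2 and 3, against 960, 1104 and 918 CPM in BP 1, 2 and 3 (edgeR adjusted p = 0.0022). Each BP+Huaier library was far above all BP libraries. SESN2, a stress-induced sestrin, rose 2.21-fold (edgeR adjusted p = 0.0055), and SRXN1, the sulfiredoxin that repairs overoxidised peroxiredoxins, rose 1.91-fold, with 22.5, 14.4 and 13.4 CPM in BP+Huaier 1, 2 and 3, against 9.94, 7.18 and 9.21 CPM in BP 1, 2 and 3 (edgeR adjusted p = 0.019). TXN, thioredoxin itself, rose 1.34-fold (0.045), while TXNRD1, which recharges it, was at 994 ± 101 CPM in BP+Huaier and 906 ± 42.3 CPM in BP and was not called (0.50). The SRXN1 call ended without BP 1, 2 or 3 and the TXN call when any library except BP+Huaier 3 was omitted (by edgeR, adjusted p reaching 0.091 and 0.16). Scaled by library size, 2 of the list rose, and SRXN1 (0.063) and TXN (0.29) were not called. Rises in the list came to 2 with any BP library left out and to 3, 3 and 8 with BP+Huaier 1, 2 or 3 left out.

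Glutathione is the reductant of GPX4. Of 17 genes for its synthesis, uptake and reduction 3 rose and 0 fell (median 0.35). SLC3A2, the heavy chain of several amino acid transporters, rose 3.23-fold, with 334, 412 and 200 CPM in BP+Huaier 1, 2 and 3, against 97.5, 97.3 and 98.3 CPM in BP 1, 2 and 3 (edgeR adjusted p = 0.0023). Each BP+Huaier library was well above all BP libraries. GSR, glutathione reductase, rose 1.59-fold (0.014) and GCLC, the catalytic subunit of the first synthetic step, rose 1.53-fold (0.046). SLC7A11, the cystine transporter that pairs with SLC3A2, was at only 1.28 ± 1.05 CPM in BP+Huaier and 2.30 ± 0.52 CPM in BP (0.25), and was called lower without BP+Huaier 3 (0.0019). The GSR and GCLC calls were lost without BP 1, 2, 3 or BP+Huaier 2 (by edgeR, adjusted p reaching 0.070 and 0.17). When scaled by library size 2 rose and 1 fell, and GCLC was not called (0.29). Rises in this list came to 1 with any BP library left out and to 3, 1 and 12 with BP+Huaier 1, 2 or 3 left out. Of 7 other glutathione peroxidases 3 were tested and 0 were called by edgeR, with 0 of the list rising or falling without any library but BP+Huaier 3. GPX1 was at 71.5 ± 24.99 CPM in BP+Huaier and 70.0 ± 8.55 CPM in BP (edgeR adjusted p = 0.94), and was called higher without BP+Huaier 3 (0.048).

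NADPH keeps thioredoxin and glutathione reduced. Of 17 genes of NADPH supply 4 rose and 0 fell (median 0.08), among them TKT and PGD of the pentose phosphate pathway and MTHFD2 of mitochondrial folate metabolism. The transketolase TKT rose 2.17-fold, with 2414, 2037 and 1172 CPM in BP+Huaier 1, 2 and 3, against 834, 838 and 918 CPM in BP 1, 2 and 3 (edgeR adjusted p = 0.011). PGD, a dehydrogenase that yields NADPH, rose 1.596-fold (0.026). The groups did not overlap for TKT or PGD. The TKT call ended without BP 1, BP 2 or BP+Huaier 2 and the PGD call when any library except BP+Huaier 3 was omitted (by edgeR, adjusted p reaching 0.064 and 0.11). The MTHFD2 call ended without BP 1 or BP 3 (adjusted p reaching 0.068). Rises came to 0, 1 and 1 with BP 1, 2 or 3 left out and to 3, 1 and 8 with BP+Huaier 1, 2 or 3 left out, where without BP+Huaier 3 another 3 fell. Under library size scaling 3 rose and 1 fell, and MTHFD2 was not called (0.067).

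Around the dismutases, 1 of 8 genes of copper delivery fell and 0 rose (6 tested, median 0.13). ATP7A, a copper-exporting ATPase, fell to 5.16 ± 1.47 CPM in BP+Huaier, against 10.4 ± 0.80 CPM in BP (edgeR adjusted p = 0.012), a call that ended without BP 1, BP 2 or BP+Huaier 2 (adjusted p reaching 0.059). Without BP+Huaier 3 the list had 3 rises and 2 falls. CCS, the copper chaperone of SOD1, was at 22.4 ± 5.32 CPM in BP+Huaier and 22.5 ± 4.57 CPM in BP (0.98). Of 28 genes for enzymes that make superoxide or peroxide 15 were tested, 2 rose and 2 fell (median 0.02). SMOX, spermine oxidase, rose 1.91-fold (0.015) and MAOA, monoamine oxidase A, 1.55-fold (0.030), while DUOX1 and XDH fell, each averaging under 5 CPM and named after values were seen. The SMOX and MAOA calls were lost without BP 1, 2, 3 or BP+Huaier 2 (by edgeR, adjusted p reaching 0.076 and 0.12), the DUOX1 call when any library except BP+Huaier 3 was omitted (adjusted p reaching 0.16) and the XDH call without BP 1 (0.051). Without BP+Huaier 3 this list had 4 rises and 4 falls, and with library size scaling 1 rise and 4 falls, MAOA not being called (0.19).

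GPX4 carries selenocysteine. Of 10 genes for selenoprotein synthesis and selenium uptake 1 rose and 1 fell (median -0.20), and both calls held whichever library was left out. There were 3 rises and 3 falls without BP+Huaier 3, and 1 rise and 3 falls with library size scaling. LRP8, a receptor for selenoprotein P and lipoproteins, rose 1.92-fold, with 82.2, 82.3 and 93.9 CPM in BP+Huaier 1, 2 and 3, against 46.5, 44.0 and 44.2 CPM in BP 1, 2 and 3 (edgeR adjusted p = 0.0020). SEPHS2, which makes the selenium donor, fell to 62.8, 41.1 and 46.9 CPM in BP+Huaier 1, 2 and 3, against 91.0, 90.6 and 96.3 CPM in BP 1, 2 and 3 (0.0070). For both genes the groups lay clearly apart, and BP+Huaier 3 lay with the other BP+Huaier libraries. SECISBP2, which recruits the selenocysteine machinery, was at 27.3 ± 4.59 CPM in BP+Huaier and 29.6 ± 1.63 CPM in BP (0.60). Of 16 other selenoproteins 11 were tested, 3 rose and 0 fell (median 0.21). SELENOK and SELENOS, which act in protein quality control of the endoplasmic reticulum, rose 2.09-fold and 1.83-fold (0.0040 and 0.0073), and SELENOO rose 2.08-fold (0.0091), a call that ended without BP 2 (0.053). Without BP+Huaier 3 these selenoproteins had 7 rises and 2 falls, and with library size scaling 3 rises and 1 fall.

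CAT reaches peroxisomes through the import receptor PEX5. Of 18 genes for peroxisome import and assembly 5 fell and 2 rose (median -0.17). PEX3, which anchors new membrane proteins, fell to 10.3 ± 0.92 CPM in BP+Huaier, against 18.6 ± 2.55 CPM in BP (edgeR adjusted p = 0.0073), and this call held whichever library was left out. ABCD3, a fatty acid transporter, fell to 26.7 ± 3.68 CPM in BP+Huaier, against 43.0 ± 3.39 CPM in BP (0.012). PEX5 rose 1.36-fold (0.045). The ABCD3 call ended without BP 1, BP 2 or BP+Huaier 2, and the PEX5 call when any library except BP+Huaier 3 was omitted (by edgeR, adjusted p reaching 0.066 and 0.17). Falls came to 3, 2 and 4 with BP 1, 2 or 3 left out and to 5, 2 and 6 with BP+Huaier 1, 2 or 3 left out, and 5 genes rose without BP+Huaier 3 and 0 without each of the others. With library size scaling 7 fell and 0 rose, PEX5 not being called (0.24), and among genes of at least 5 CPM 4 fell and 0 rose.

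Of 16 genes of lipid peroxidation and its suppression 12 were tested, 5 rose and 0 fell (median 0.52). AIFM2, also called FSP1, which restrains ferroptosis beside GPX4 by reducing coenzyme Q, rose 1.75-fold, with 65.5, 53.9 and 43.0 CPM in BP+Huaier 1, 2 and 3, against 30.1, 27.4 and 35.2 CPM in BP 1, 2 and 3 (edgeR adjusted p = 0.013). GCH1, which makes the antioxidant tetrahydrobiopterin, rose 1.595-fold (0.024), as did POR, an oxidoreductase that promotes lipid peroxidation, 1.61-fold (0.030). The list thus held rises of genes with opposite roles. The AIFM2 call ended without BP 1, BP 2 or BP+Huaier 2, the GCH1 call without BP 1, 2, 3 or BP+Huaier 2 and the POR call when any library except BP+Huaier 3 was omitted (by edgeR, adjusted p reaching 0.071, 0.10 and 0.12). Rises came to 0, 0 and 1 with BP 1, 2 or 3 left out and to 4, 0 and 6 with BP+Huaier 1, 2 or 3 left out, with 1 fall without BP+Huaier 3. With library size scaling 1 rose and 1 fell, and neither GCH1 (0.16) nor POR (0.063) was called.

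Among 18 transcription regulators of these enzymes 16 were tested, 6 rose and 0 fell (median 0.34). The small MAF proteins, partners of NRF2 and of its competitor BACH1 on antioxidant response elements, rose together. MAFF rose 7.54-fold, with 202, 341 and 120 CPM in BP+Huaier 1, 2 and 3, against 28.6, 29.6 and 29.8 CPM in BP 1, 2 and 3 (edgeR adjusted p = 0.0012). MAFG rose 3.13-fold (8.9e-04) and MAFK 3.10-fold (0.0014), and the calls of MAFF, MAFG and MAFK held whichever library was left out. NFE2L2, which encodes NRF2, was at 36.0 ± 9.81 CPM in BP+Huaier and 31.9 ± 3.97 CPM in BP (0.55), and KEAP1, its inhibitor, at 82.9 ± 25.4 CPM in BP+Huaier and 60.3 ± 2.54 CPM in BP (0.12). KEAP1 was called higher without BP+Huaier 3 (8.5e-04). Library size scaling left 4 regulators called higher and 0 lower. Whether the small MAF genes changed more than the enzymes was not tested.

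**Figure D4:**
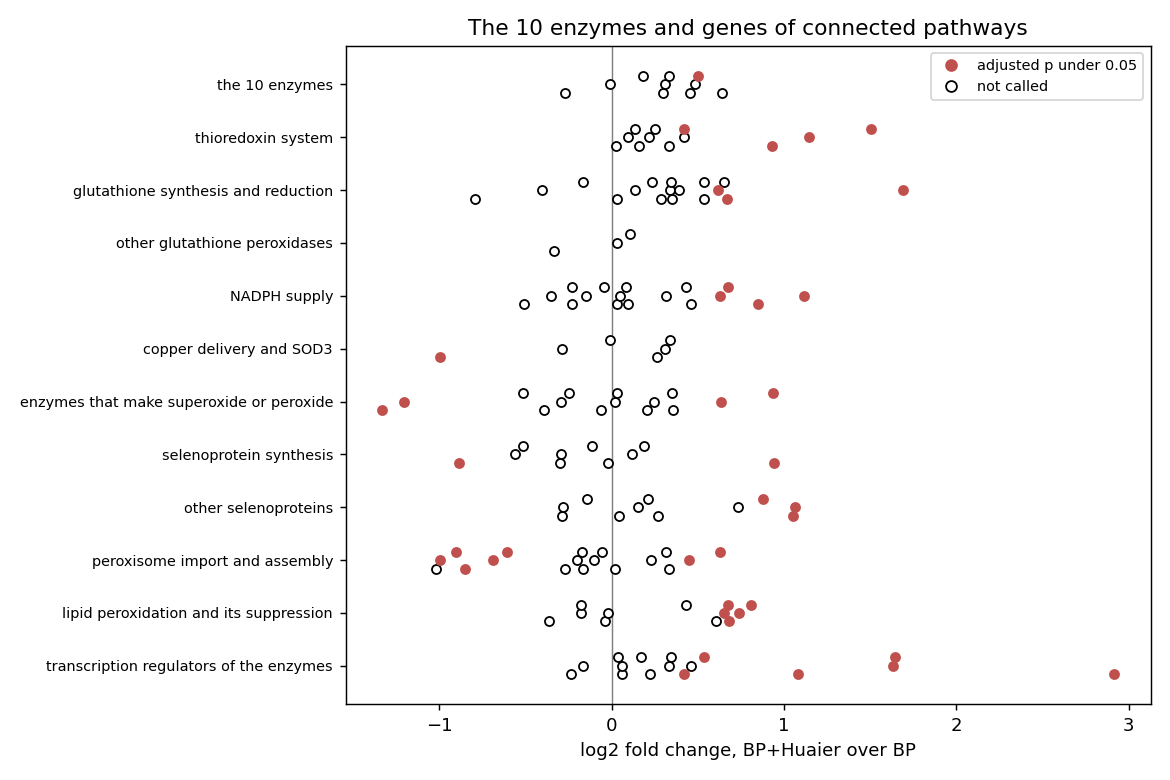
Log2 fold change, BP+Huaier over BP, of each tested gene of the 10 enzymes (top row) and of 11 connected gene lists, filled red where the adjusted p was under 0.05 and open otherwise, with vertical offsets only to separate points. The enzymes span -0.27 to 0.64 with 1 call, while TXNIP at 1.505, SLC3A2 at 1.69 and MAFF at 2.91 lie farthest right in their lists.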

How the data were processed

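Per the labels' protocols, TRIzol RNA went into NEBNext Ultra libraries that were sequenced in pairs of 150 bases. The submitters' processing notes name GRCh38 and the tools featureCounts 1.6.1, HISAT2 2.1.0 and fastp 0.20.0. How strand, multi-mapping and shared exons were handled is not given there, so reads in exons that genes share are uncertain. The authors deposited whole-number counts per gene, not normalized. Left out were 44 second copies of genes shared by the X and Y chromosomes and 1 gene whose line was broken into 3 pieces. Symbols came from a table of gene names and GENCODE release 29, which gave 99.98% of the IDs a name.

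The tests used edgeR 4.0.16 in R 4.3.3 (filterByExpr, TMM, robust quasi-likelihood fit of the 2 groups without covariates, Benjamini-Hochberg over all 15022 genes, calls at an adjusted p under 0.05). Intervals of 95% follow from the test's standard error and are not adjusted. GC content is that of the longest GENCODE transcript. The named genes were the 10 enzymes, a fixed set of 12 helpers such as TXN and KEAP1, up to 3 called genes of at least 5 CPM per list, and the 5 nearest patterns to the called enzyme with the largest change. Some genes that this rule names are not reported here. The members, lists and rules were chosen with earlier results of these data known. Alternatives were DESeq2 size factors, library size scaling, DESeq2 1.42.0, limma-voom 3.58.1, no filter, at least 5 CPM, the replicate number as a block, removal of a GC and length trend, each library left out, an adjusted p under 0.01 and, chosen after seeing the data, limma-voom with a separate spread for each group. The steps were tested on simulated data. Figures were drawn with matplotlib 3.10.9.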

Additional observations from a re-analysis of the deposited data

How the results depend on the processing

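Of the 10 enzymes, 1 was called higher and 0 lower. The number called higher was 3 in DESeq2, 4 unfiltered, 3 after trend removal (GC content and length) and 2 by limma-voom with a spread for each group, and 0 with library size scaling (1 lower), at least 5 CPM or an adjusted p under 0.01; without 1 library it ranged between 0 and 7, and the number lower stayed at 0. All genes called numbered 2160 higher and 2246 lower in the main test, 1051 higher and 2959 lower with library size scaling, 1357 lower with at least 5 CPM, and 826 higher and 810 lower at an adjusted p under 0.01. Without 1 library they ranged between 810 and 4452 higher and between 909 and 4793 lower. The log2 fold change of PRDX4 turned to -0.10 with library size scaling. That of SOD2, -0.01, was 0.018 under DESeq2's size factors, 0.018 in DESeq2 itself, 0.023 unfiltered and 0.42 after trend removal, and between -0.057 and 0.061 without 1 library; the cause was not tested. The SOD2 to SOD1 log2 difference ranged between -0.54 and -0.16 without 1 library. With the replicate block no enzyme was called (0 higher, 0 lower), PRDX1 had an edgeR adjusted p of 0.086, and 1357 and 1742 genes were higher and lower. Of the lists, lipid peroxidation then had 2 rises and peroxisomes 0 rises and 5 falls. Deviations of same-numbered libraries correlated at 0.01, -0.06 and -0.28, so they gave no sign that the number pairs them. With 3 libraries a group such values cannot exclude a shared culture or batch. Precision is limited by 3 libraries a group; CAT, at 307 to 535 counts, was the member with the fewest counts.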
